A study of Mus musculus with 12 samples.

Results

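A set of genes of the MHC class I antigen presentation pathway is described here across bone marrow-derived macrophages (BMDMs) of WT and Pim1-/- mice. These 10 were taken by symbol from the 23997 genes listed for each library: the class I heavy chains H2-K1 and H2-D1, their light chain B2m, the peptide transporter genes Tap1 and Tap2, the loading factor Tapbp, the immunoproteasome subunits Psmb8, Psmb9 and Psmb10, and the transactivator Nlrc5. All 10 were above 0 in all 12 libraries, and all 10 passed the filter on low values that left 10581 genes for testing.

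The study asked what the loss of the kinase Pim1 changes in the RNA of macrophages that meet LPS, a bacterial cell wall component sensed by TLR4. RNA-seq was done on 4 groups of 3 libraries: untreated WT, LPS-treated WT, untreated Pim1-/- and LPS-treated Pim1-/- BMDMs. All donors were C57BL/6 males aged 8 to 10 weeks, and marrow cells of every group were grown for 7 days with recombinant human M-CSF at 10 ng/ml. LPS was given at 100 ng/ml for 4 h. The knockout mice were made by CRISPR/Cas9 editing, and the edit is not restricted to macrophages. The labels do not say whether the libraries of a group came from separate mice, so p-values measure the spread between these libraries, which may be technical. In bulk RNA, fewer expressing cells and less RNA per cell cannot be told apart.

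Class I molecules show peptides from inside the cell to CD8+ T cells. Proteasomes cut proteins into peptides, and the immunoproteasome is the form in which the inducible catalytic subunits encoded by Psmb8, Psmb9 and Psmb10 take the places of Psmb5, Psmb6 and Psmb7. The TAP transporter, a dimer of the Tap1 and Tap2 products, carries the peptides into the endoplasmic reticulum, where tapasin, the product of Tapbp, holds the transporter next to an empty heavy chain with its beta-2 microglobulin. NLRC5 is a class I transactivator that is brought to class I promoters by factors bound to the X and Y boxes, and interferons and NF-kB are known inducers of genes of this pathway.

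On mouse build GRCm38 (GENCODE M21), 7 of the 10 genes lie on chromosome 17 in the MHC. Tapbp (33915899 to 33929292, plus strand) and H2-K1 (33996017 to 34000347, minus strand) lie first. Psmb9 (34181987 to 34187764, minus), Tap1 (34187553 to 34197225, plus), Psmb8 (34197721 to 34201454, plus) and Tap2 (34203527 to 34216321, plus) are neighbours within 34335 bases, and H2-D1 (35262730 to 35267499, plus) lies farther along. B2m is on chromosome 2 (122147686 to 122153083, plus), and Nlrc5 (94434356 to 94527272, plus) and Psmb10 (105935735 to 105938444, minus) are on chromosome 8. The annotated Psmb9 and Tap1 genes face away from each other and overlap by 212 bases. The libraries were stranded, but whether the counting used the strand is not given in the sources used here, and reads in that overlap cannot be assigned with certainty.

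Promoter sequences, from 250 bases before to 50 bases after the start site (RefSeq, GRCm38.p6), were found for 8 of the 10 genes, with none for Tap2 or Nlrc5. H2-K1, H2-D1 and B2m, which encode the chains of the class I molecule itself, shared an arrangement of the X2 core TGACG and the Y box ATTGG on the strand of the gene with exactly 20 bases between them. These 30-base stretches are shown because they hold the same pair at the same spacing in genes on different chromosomes, with the pair in capitals.
H2-K1 (chr17:34000359-34000388, minus strand): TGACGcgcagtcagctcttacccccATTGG
H2-D1 (chr17:35262993-35263022, plus strand): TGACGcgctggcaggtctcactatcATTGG
B2m (chr2:122147609-122147638, plus strand): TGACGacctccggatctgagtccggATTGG
The pair began 41, 101 and 78 bases before the RefSeq start of H2-K1, H2-D1 and B2m, and GENCODE places the stretch of H2-D1 inside the first exon of its longest transcript. The spacing was noticed in these promoters and then searched in all. It was present on either strand in 31 of 32851 promoter entries (0.0944%), which belong to 27 genes, and H2-M3, another class I heavy chain, is among them. Alone, TGACG was in 20.8% of all entries and ATTGG in 37.4%. The other 5 promoters (Tap1, Tapbp, Psmb8, Psmb9 and Psmb10) did not hold it.

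Motifs of the other inducers were found in the same promoters. The IRF core AANNGAAA, searched on both strands, was in H2-K1, H2-D1 and B2m and in 23.9% of all entries. The NF-kB consensus was in the same 3 genes and in 8.46% of all entries. The longer interferon-stimulated response element GAAANNGAAA, which overlaps the IRF core, was in B2m and in 3.44% of all entries, and the STAT motif TTCNNNGAA was in Psmb8 and in 8.3%. Upstream stretches of H2-K1 and B2m are printed to show the order of the motifs, with matches to the NF-kB consensus, the IRF core, TGACG and ATTGG in capitals.
H2-K1 (chr17:34000357-34000477, minus strand): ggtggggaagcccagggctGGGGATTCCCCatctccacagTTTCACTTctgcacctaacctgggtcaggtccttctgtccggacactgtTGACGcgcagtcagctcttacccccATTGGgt
B2m (chr2:122147542-122147677, plus strand): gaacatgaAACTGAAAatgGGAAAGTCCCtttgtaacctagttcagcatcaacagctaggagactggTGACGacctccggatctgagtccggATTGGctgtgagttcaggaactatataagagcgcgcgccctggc
In H2-K1 the NF-kB match lay upstream of the IRF core, and in B2m the order was the other way round. A match is a run of letters and not a measured binding site.

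The level of Pim1 was read first, as a check of the labels. Untreated WT libraries had 25.0, 21.5 and 22.3 FPKM (fragments per kilobase of transcript, scaled by the depth of the library) and untreated Pim1-/- libraries 8.70, 8.00 and 9.51 FPKM, which is 38.1% of the WT mean. After LPS the means were 645 FPKM in WT and 219 FPKM in Pim1-/- BMDMs, or 33.9%. The Pim1 value was thus lower in every knockout library but not at 0, and the file gives 1 value for the whole gene, edited and unedited exons alike. The macrophage markers Csf1r, Cd68, Itgam, Mertk, Fcgr1, Lyz2 and Cd14 were present in every group (7 of 8 listed markers were in the files). Their summed level, most of it from the lysozyme gene Lyz2, was 27630 to 29670 FPKM in untreated WT against 14250 to 15160 in untreated Pim1-/- libraries, and 30320 to 30790 against 15630 to 17480 after LPS. Of these 7 markers, 6 were lower in Pim1-/- BMDMs without treatment, where 42.8% of all genes tested were lower, and 7 after LPS, where 42.2% were. Their part in the class I result was not tested. Markers of the other cell types were at or near 0, with the highest sum in any library 2.77 FPKM for the 6 dendritic cell markers. The 4 stromal markers summed to 2.09 to 2.41 FPKM in WT and 0.602 to 0.727 FPKM in Pim1-/- libraries untreated, and to 2.41 to 2.68 and 0.663 to 0.746 FPKM after LPS. The collagen gene Col1a2, the only stromal marker that passed the filter, was lower in Pim1-/- BMDMs in both states (-0.69 untreated and -0.81 after LPS on the log2 scale), and the part of these cells was not tested either. The sum of all values was 452511 to 489710 FPKM in untreated and 713307 to 849323 FPKM in LPS-treated libraries, so a scale that sets the sums equal (TPM) moved the median of all genes from near 0 to -0.71 on the log2 scale for LPS in WT and -0.62 for LPS in Pim1-/- BMDMs, to 0.13 for the genotypes after LPS and to 0.12 for the difference in LPS response. Quantile normalization moved it to -0.17 and -0.18 for LPS in WT and in Pim1-/- BMDMs.

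Among the heavy chains, H2-K1 encodes the classical K molecule. Its levels were 546, 548 and 542 FPKM in untreated WT and 375, 368 and 378 FPKM in untreated Pim1-/- libraries. After LPS they were 2025, 1937 and 1965 FPKM in WT and 1193, 1172 and 1195 FPKM in Pim1-/- BMDMs. The genotypes did not overlap with or without LPS. The Pim1-/- mean was 68.5% of WT without treatment (log2 difference -0.54 ± 0.04 SE, adjusted p = 2.0e-09) and 60.1% after LPS (-0.73 ± 0.04, adjusted p = 4.9e-11).

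H2-D1, which encodes the classical D molecule, had the higher level of the pair. Untreated WT libraries were at 1515, 1491 and 1475 FPKM and untreated Pim1-/- libraries at 1019.7, 976 and 1037 FPKM. LPS-treated WT libraries were at 2989, 2867 and 2960.4 FPKM and LPS-treated Pim1-/- libraries at 1918, 1844 and 1905 FPKM. All Pim1-/- values were again below all WT values of the same treatment, by a near equal amount: 67.7% of WT untreated (log2 difference -0.56 ± 0.04) and 64.3% after LPS (-0.64 ± 0.04, adjusted p = 9.8e-10). H2-D1 was also the gene with the smallest LPS response of the 10, 1.97-fold in WT and 1.87-fold in Pim1-/- BMDMs. The ratio of H2-K1 to H2-D1, which does not change when a library is multiplied by a factor, lay between 0.361 and 0.368 in untreated WT and between 0.365 and 0.377 in untreated Pim1-/- libraries, which overlapped. After LPS it lay between 0.664 and 0.678 in WT and between 0.622 and 0.636 in Pim1-/- libraries, which did not. Of the 100-base windows of the longest H2-D1 transcript, 4.64% also occur in other genes, mostly H2-Q1, H2-T23 or a predicted gene. For the longest H2-K1 transcript the share is 0%, though H2-Q10 has windows in common with another H2-K1 transcript. The files also list a row named H2-L, chosen here after its values were seen, at group means of 91.3, 64.5, 192 and 126 FPKM (untreated WT, untreated Pim1-/-, LPS-treated WT, LPS-treated Pim1-/-). C57BL/6 mice have K and D but no L molecule, and the symbol is absent from both annotations used here, so the H2-D1 level is uncertain where reads were divided between these rows.

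B2m encodes beta-2 microglobulin, the light chain that every class I heavy chain needs to reach the surface. It was the most abundant of the 10 in all 4 groups, on the FPKM scale, which is per length of transcript. Without treatment WT libraries had 2004, 2064 and 1935 FPKM and Pim1-/- libraries 1934, 2009 and 1849 FPKM. These ranges overlapped (log2 difference -0.05 ± 0.05, 95% interval -0.16 to 0.06, adjusted p = 0.361). After LPS the values were 5873, 5907 and 5809.8 FPKM in WT and 4658, 4717 and 4225 FPKM in Pim1-/- BMDMs. The genotypes were then apart, with Pim1-/- at 77.3% of WT (-0.37 ± 0.05, adjusted p = 6.5e-06). The heavy chain H2-K1 relative to B2m was lower in Pim1-/- libraries in both states, at 0.194 ± 0.011 against 0.273 ± 0.007 untreated and 0.263 ± 0.018 against 0.337 ± 0.009 after LPS (mean ± SD, n = 3).

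**Figure D1:**
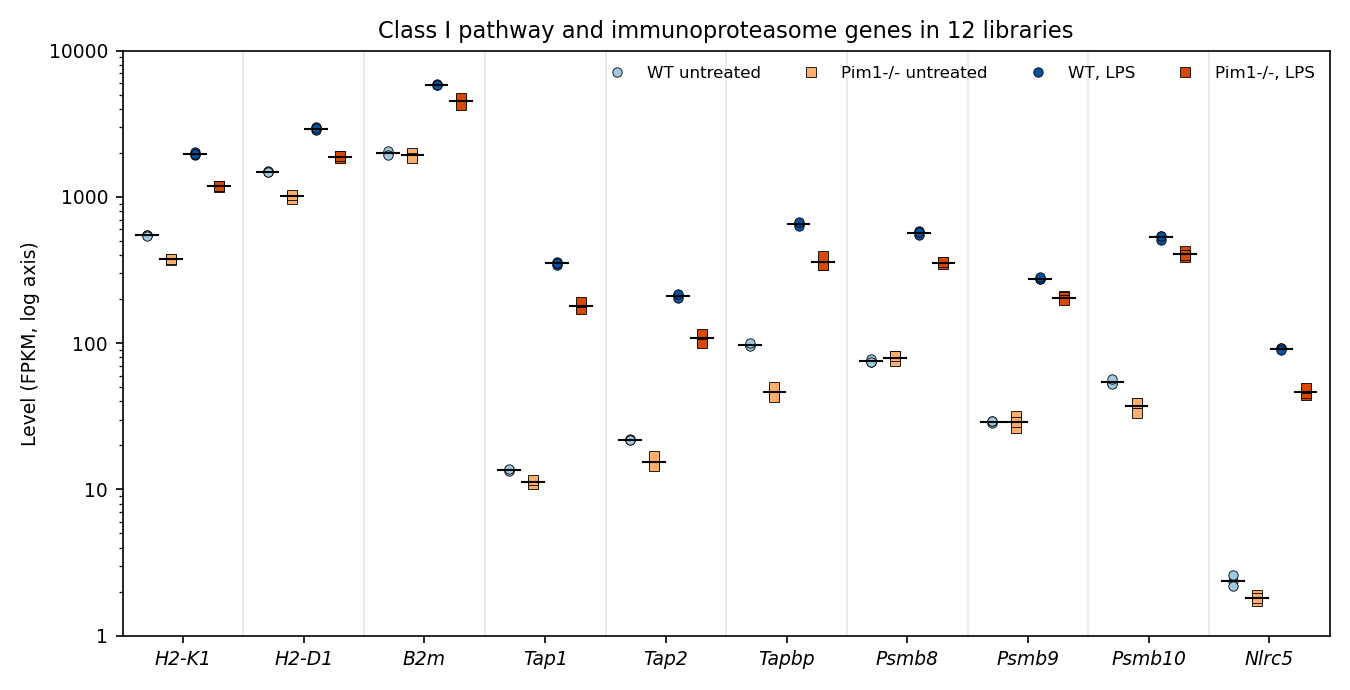
Level in FPKM (vertical log axis) of the 10 genes in each of the 12 libraries, with circles for WT, squares for Pim1-/-, pale colours for untreated and dark colours for LPS-treated BMDMs, and a bar at each group mean. After LPS all 3 Pim1-/- squares lie below all 3 WT circles for each of the 10 genes, while B2m, Psmb8 and Psmb9 overlap between genotypes without treatment.

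Tap1 encodes the first chain of the peptide transporter. It was low without treatment, at 13.7, 13.3 and 13.8 FPKM in WT and 11.1, 10.8 and 11.6 FPKM in Pim1-/- libraries. LPS brought it to 358, 342 and 354 FPKM in WT but to 176, 170.3 and 191 FPKM in Pim1-/- BMDMs. The Pim1-/- libraries were below WT in both states, narrowly without treatment (82.2% of WT, log2 difference -0.26 ± 0.05, adjusted p = 9.1e-05) and by close to 2-fold after LPS (50.9% of WT, -0.97 ± 0.05, adjusted p = 3.5e-11).

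Tap2 encodes the partner chain. WT libraries had 21.98, 21.6 and 21.9 FPKM and Pim1-/- libraries 15.0, 14.5 and 16.98 FPKM without treatment. With LPS they had 213, 203 and 215 FPKM and 106.5, 100.6 and 116 FPKM. Both states separated the genotypes, with Pim1-/- at 70.9% of WT untreated (-0.47 ± 0.06, adjusted p = 2.9e-06) and 51.2% after LPS (-0.96 ± 0.06, adjusted p = 7.1e-10). The ratio of Tap1 to Tap2 lay between 0.615 and 0.632 in untreated WT and between 0.683 and 0.746 in untreated Pim1-/- libraries, with no overlap. After LPS it lay between 1.64 and 1.68 in WT and between 1.64 and 1.69 in Pim1-/- libraries, which overlapped.

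Tapbp encodes tapasin. Its levels were 97.4, 95.1 and 99.6 FPKM in untreated WT and 44.7, 43.1 and 50.2 FPKM in untreated Pim1-/- libraries. After LPS they were 652, 634 and 669 FPKM in WT and 344, 344 and 392 FPKM in Pim1-/- BMDMs. It was the gene of the 10 with the largest gap before LPS, with Pim1-/- at 47.3% of WT (-1.07 ± 0.06, adjusted p = 2.4e-10). After LPS the Pim1-/- mean stood at 55.2% of WT (-0.86 ± 0.06, adjusted p = 2.8e-09). Of the 100-base windows of its longest transcript, 14% occur in other annotated transcripts, the largest share among the 10.

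Psmb8 encodes LMP7, the inducible subunit that replaces the Psmb5 product. Without treatment WT libraries had 74.0, 78.5 and 74.4 FPKM and Pim1-/- libraries 82.1, 75.0 and 81.2 FPKM, and the ranges overlapped (log2 difference 0.07 ± 0.04, 95% interval -0.02 to 0.16, adjusted p = 0.163). After LPS the values were 582, 549 and 572 FPKM in WT and 362, 347 and 359 FPKM in Pim1-/- BMDMs. The Pim1-/- mean was then 62.7% of WT (-0.67 ± 0.04, adjusted p = 1.6e-09), so Psmb8 had no detected difference before LPS and a clear one after it.

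Psmb9 encodes LMP2, which replaces the Psmb6 product. Its untreated levels were 28.5, 29.3 and 29.6 FPKM in WT and 31.6, 26.5 and 28.9 FPKM in Pim1-/- libraries, with the WT values inside the Pim1-/- range (-0.01 ± 0.05, 95% interval -0.12 to 0.10, adjusted p = 0.888). After LPS they were 273, 274 and 282 FPKM in WT and 210.2, 207 and 198 FPKM in Pim1-/- BMDMs, which is 74.1% of WT (-0.43 ± 0.05, adjusted p = 2.0e-06). Psmb9 and Tap1, which face away from each other across a shared upstream region, did not move in step. The ratio of Tap1 to Psmb9 was 0.467 ± 0.013 in untreated WT and 0.387 ± 0.031 in untreated Pim1-/- libraries, and 1.27 ± 0.03 and 0.875 ± 0.078 after LPS (mean ± SD, n = 3), with no overlap between any of the 4 groups.

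Psmb10 encodes MECL-1, which replaces the Psmb7 product. Untreated WT libraries had 53.6, 52.5 and 56.6 FPKM and untreated Pim1-/- libraries 39.1, 33.1 and 39.1 FPKM. After LPS they had 542, 510.5 and 538 FPKM and 425, 389 and 403 FPKM. In contrast to the other inducible subunits, Psmb10 was already lower before LPS (68.4% of WT, -0.54 ± 0.06, adjusted p = 7.4e-07), and after LPS it stood at 76.5% of WT (-0.39 ± 0.06, adjusted p = 2.4e-05). Under quantile normalization the difference after LPS was -0.04 (adjusted p = 0.536), the only one of the 10 that did not pass after LPS under the 3 other scalings tried.

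Nlrc5, the transactivator, had the lowest level of the 10 in every group. It was at 2.35, 2.17 and 2.61 FPKM in untreated WT and 1.72, 1.89 and 1.80 FPKM in untreated Pim1-/- libraries. LPS-treated WT libraries had 93.3, 92.4 and 89.5 FPKM and LPS-treated Pim1-/- libraries 44.1, 45.4 and 49.2 FPKM. The Pim1-/- values were lower in both states, at 75.9% of WT untreated (-0.27 ± 0.06, adjusted p = 4.3e-04) and 50.4% after LPS (-0.97 ± 0.06, adjusted p = 3.0e-10). Since the differences are on log2(FPKM + 1), the untreated value understates the ratio at this low level.

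After LPS, all 10 genes were lower in Pim1-/- BMDMs at an FDR under 0.1, where 42.2% of all genes tested were lower. The median log2 difference was -0.70, against -0.03 over all genes tested. All 10 also had every Pim1-/- library below every WT library, which 41.8% of all genes tested showed. The study's further threshold of more than 2-fold was passed by 0 of the 10, against 5.15% of all genes tested. Nlrc5, Tap1 and Tap2 lay next to that threshold. Without replicate 3 of LPS-treated Pim1-/- BMDMs the count was 3, with Nlrc5, Tap1 and Tap2 each at -1.02. On the TPM scale 61.8% of the genes past 2-fold were higher in Pim1-/- BMDMs, against 40.5% on the deposited scale, and the median of the 10 was then -0.50, against 0.13 for all genes.

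**Figure D2:**
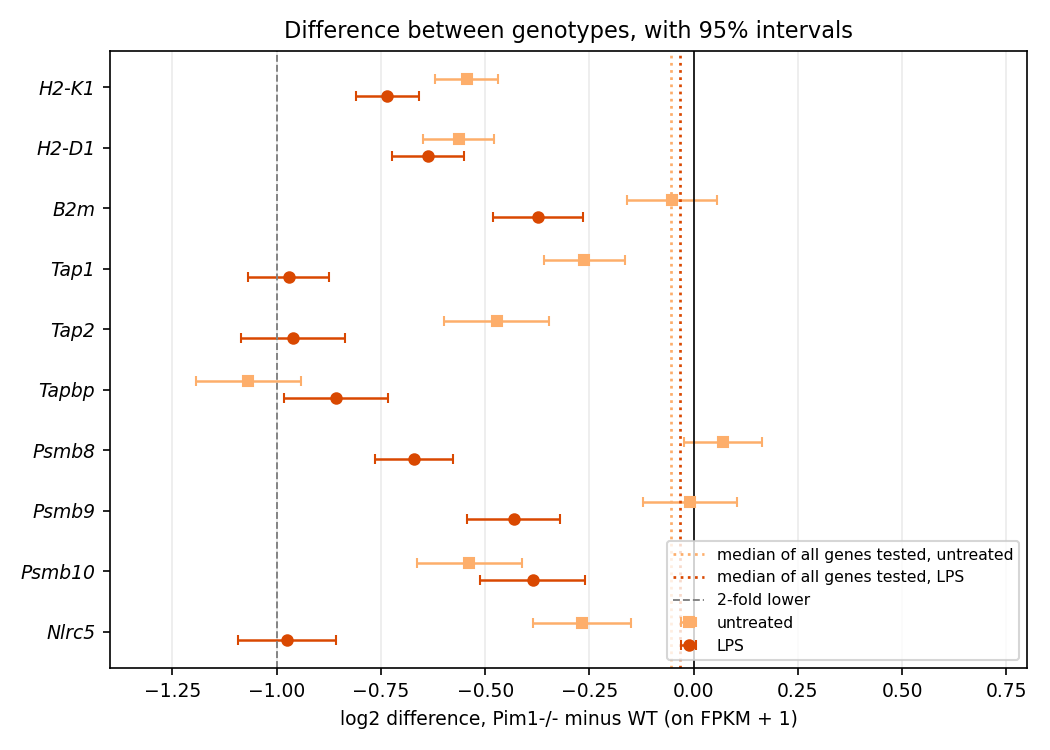
Log2 difference between genotypes (Pim1-/- minus WT, on FPKM + 1; horizontal axis) with its 95% interval for each of the 10 genes, squares for untreated and circles for LPS-treated BMDMs. All 10 circles lie left of 0, between -0.97 (Nlrc5) and -0.37 (B2m), and the dotted lines mark the medians of all genes tested, at -0.05 untreated and -0.03 after LPS.

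Without treatment 7 of the 10 were lower in Pim1-/- BMDMs, where 42.8% of all genes tested were lower, and none was higher. The 7 were both heavy chains, Tap1, Tap2, Tapbp, Psmb10 and Nlrc5, and the same 7 had every Pim1-/- library below every WT library (44.2% of all genes tested). Tapbp alone was lower by more than 2-fold (3.37% of all genes tested). The median of the 10 was -0.37, against -0.05 over all genes tested.

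LPS raised all 10 genes in WT BMDMs, where 45% of all genes tested rose, and in Pim1-/- BMDMs, where 42.2% did. By more than 2-fold it raised 9 of the 10 in each genotype, all but H2-D1, against 20.1% of all genes tested in WT and 14.6% in Pim1-/- BMDMs. On the TPM scale B2m was also under 2-fold (0.74 in WT and 0.57 in Pim1-/- BMDMs on the log2 scale). This left 8 in each genotype. Over all genes tested, 1236 rose by more than 2-fold in WT and 1026 in Pim1-/- BMDMs on the TPM scale. As deposited, 2130 and 1546 did. Under quantile normalization B2m (0.67 and 0.41) and H2-K1 (0.90 and 0.79) were under 2-fold, which left 7 in each genotype. The genes past 2-fold over all genes tested were not counted under quantile normalization. In WT the response ran from 38.6-fold for Nlrc5 and 25.8-fold for Tap1, through 9.78-fold for Psmb10, 9.64-fold for Tap2, 9.504-fold for Psmb9, 7.504-fold for Psmb8 and 6.69-fold for Tapbp, to 3.62-fold for H2-K1, 2.93-fold for B2m and 1.97-fold for H2-D1. Nlrc5 and Tap1, the genes with the lowest untreated levels in WT, had the largest folds. From the most to the least abundant, the order in untreated WT libraries was B2m, H2-D1, H2-K1, Tapbp, Psmb8, Psmb10, Psmb9, Tap2, Tap1, Nlrc5. After LPS in WT, Tap1 moved above Psmb9 and Tap2. In these groups and in untreated Pim1-/- libraries no neighbours in the order overlapped. In LPS-treated Pim1-/- libraries Psmb10 and Tapbp overlapped, as did Tapbp and Psmb8. Folds against untreated libraries depend on the scale: on the TPM scale the share of higher genes among those past 2-fold was 23.3% in WT and 24.6% in Pim1-/- BMDMs, against 57.8% and 58.4% as deposited, and the median of the 10 was 2.25 and 2.12 on the log2 scale, against 3.05 and 2.75. Under quantile normalization it was 1.95 in WT and 2.13 in Pim1-/- BMDMs, so that the larger median was then that of Pim1-/- BMDMs. H2-D1 did not pass in the WT comparison under quantile normalization (0.09, adjusted p = 0.088, with the unadjusted p above 0.05).

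The LPS response itself was compared between genotypes, as the log2 response in Pim1-/- minus that in WT BMDMs. It was smaller in Pim1-/- BMDMs for 7 of the 10, where 34.7% of all genes tested had a smaller response, and larger for 1, where 31.3% did. For Psmb8 the difference was -0.74 ± 0.06 (adjusted p = 7.5e-08), a 7.504-fold response in WT against 4.48-fold in Pim1-/- BMDMs. Tap1 and Nlrc5 were at -0.71 each, within the error of Psmb8, with 25.8-fold against 16.0-fold for Tap1 and 38.6-fold against 25.6-fold for Nlrc5. At the low untreated level of Nlrc5 the log2(FPKM + 1) scale shrinks the untreated gap. Its difference in response is therefore larger on this scale than these folds of FPKM give. Tap2 (-0.49), Psmb9 (-0.42), B2m (-0.32) and H2-K1 (-0.19) made up the 7. Under quantile normalization the order of the leading genes changed, with Tap1 at -0.45, Psmb8 at -0.40 and Nlrc5 at -0.35, and the call held for each. Tapbp went the other way, with a response larger by 0.21 ± 0.08 (adjusted p = 0.0382), 7.82-fold in Pim1-/- and 6.69-fold in WT. For H2-D1 the difference was -0.07 (95% interval -0.19 to 0.05, adjusted p = 0.267) and for Psmb10 it was 0.15 (95% interval -0.03 to 0.33, adjusted p = 0.123). The Tapbp call was lost when replicate 1 or replicate 2 of untreated Pim1-/-, replicate 2 of LPS-treated WT or replicate 3 of LPS-treated Pim1-/- BMDMs was left out (0.19, 0.17, 0.19 and 0.15). Psmb10 passed when libraries were paired by replicate number (0.15, adjusted p = 0.0302), without replicate 1 or replicate 3 of untreated Pim1-/- BMDMs (0.19 each), on the TPM scale (0.31) and under quantile normalization (0.54). H2-K1 did not pass on the TPM scale (-0.04, adjusted p = 0.465), nor H2-K1 (-0.10) or Tap2 (-0.12) under quantile normalization. On the TPM scale 49.4% of the genes past 2-fold had a larger response, against 33.6% as deposited.

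**Figure D3:**
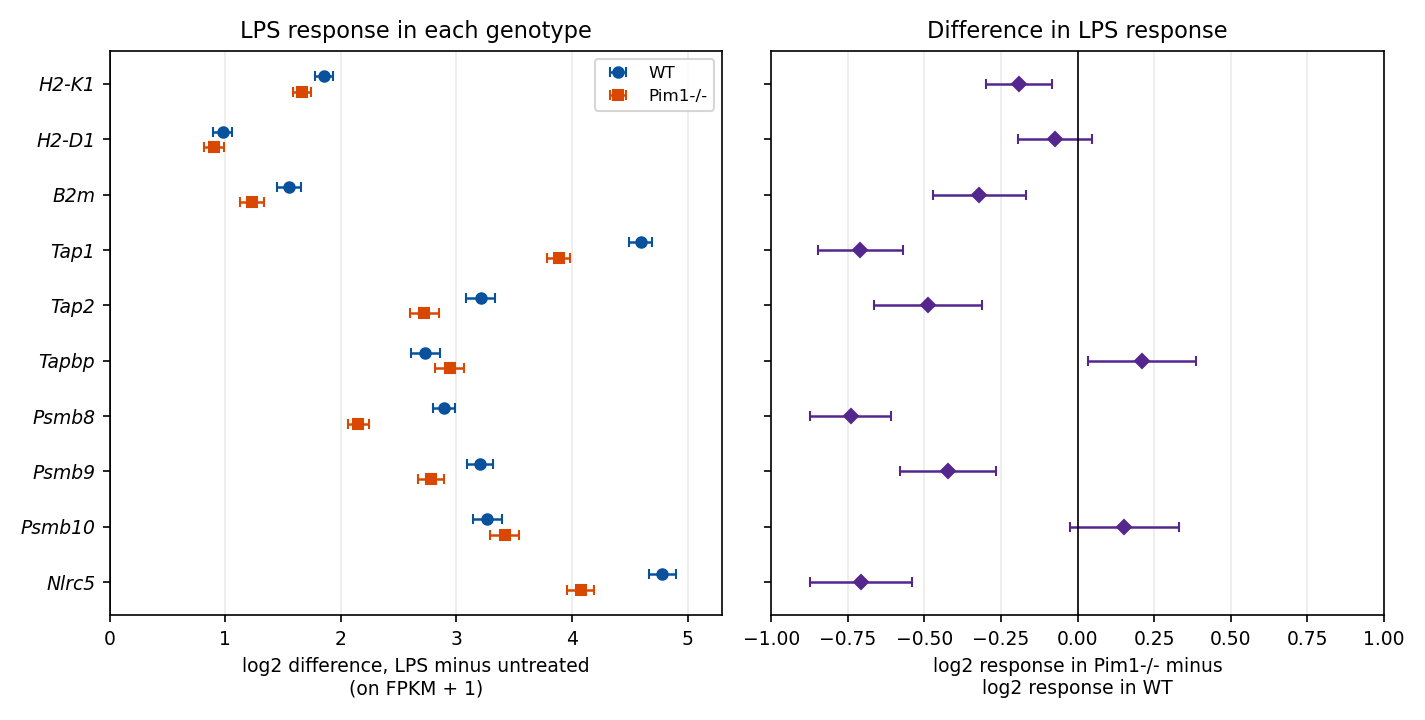
Left, log2 LPS response (LPS minus untreated, on FPKM + 1) of each gene in WT (circles) and Pim1-/- BMDMs (squares), and right, the response in Pim1-/- minus that in WT, all with 95% intervals. Psmb8 (-0.74), Tap1 (-0.71) and Nlrc5 (-0.71) lie farthest to the left with overlapping intervals, Tapbp lies to the right of 0, and the intervals of H2-D1 and Psmb10 reach across 0.

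The inducible subunits were also set against the constitutive subunits they replace, as ratios within a library, which do not change when a library is multiplied by a factor, as in median-ratio or TPM scaling. Psmb5, Psmb6 and Psmb7 themselves were all higher in Pim1-/- than in WT BMDMs, at 124 against 81.7, 240.3 against 159 and 141 against 79.2 FPKM untreated, and at 161 against 133, 694 against 530.0 and 235 against 189 FPKM after LPS (adjusted p between 1.7e-04 and 4.0e-06 after LPS). Of the 10581 genes tested, 3539 were higher in Pim1-/- BMDMs without treatment and 3848 after LPS. The direction of Psmb5, Psmb6 and Psmb7 held in both states under all 3 other scalings tried. After LPS it was opposite to that of Psmb8, Psmb9 and Psmb10, and without treatment to that of Psmb10, while Psmb8 and Psmb9 did not pass. Of these calls, that of Psmb10 after LPS was lost under quantile normalization (-0.04 on the log2 scale), and Psmb8 without treatment passed as higher on the TPM scale (0.13).

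The Psmb8 to Psmb5 ratio was 0.907, 0.927 and 0.945 in untreated WT and 0.622, 0.632 and 0.672 in untreated Pim1-/- libraries. After LPS it was 4.35, 4.14 and 4.27 in WT and 2.23, 2.17 and 2.22 in Pim1-/- libraries. Although Psmb8 itself showed no detected difference before LPS, its ratio to Psmb5 was apart in both states, at 69.2% of WT untreated and 51.9% after LPS. The ratio of Psmb9 to Psmb6 averaged 0.183 ± 0.007 in WT and 0.121 ± 0.006 in Pim1-/- libraries untreated, and 0.522 ± 0.003 and 0.296 ± 0.013 after LPS (mean ± SD, n = 3). For Psmb10 to Psmb7 the averages were 0.686 ± 0.055 and 0.265 ± 0.035 untreated, and 2.80 ± 0.06 and 1.74 ± 0.11 after LPS. LPS raised this last ratio 4.09-fold in WT and 6.58-fold in Pim1-/- libraries, from a starting ratio in Pim1-/- that was 38.4% of WT. No pair of groups overlapped in any of the 12 comparisons made. With 3 libraries against 3, the exact two-sided permutation test gave p = 0.1 for each (adjusted p = 0.1), the smallest value this test can give with 3 against 3.

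**Figure D4:**
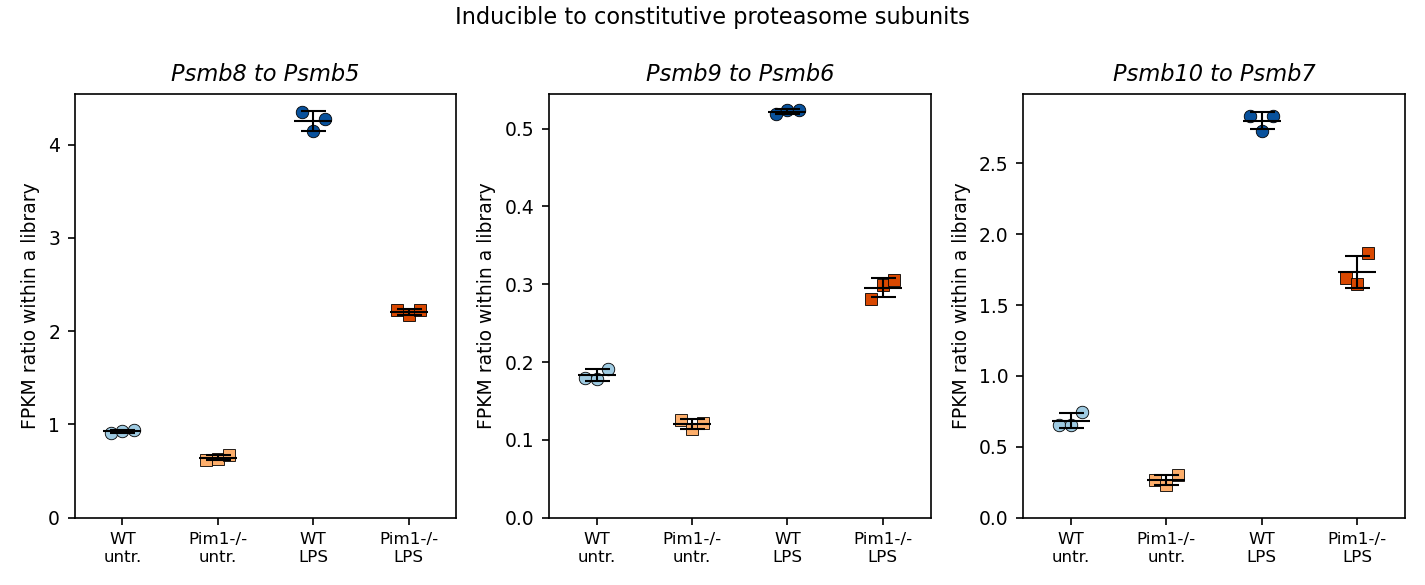
Ratio of FPKM of each inducible subunit to the constitutive subunit it replaces (vertical axes, from 0) in each of the 12 libraries, with the mean and SD of the 3 libraries of a group. For all 3 pairs the Pim1-/- squares lie under the WT circles of the same treatment, with Psmb8 to Psmb5 at 4.14 to 4.35 in WT and 2.17 to 2.23 in Pim1-/- libraries after LPS.

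Other genes of the pathway were read from lists made by function. Of 16 other class I or class I-like heavy chains, 11 passed the filter on low values. After LPS 8 of these 11 were lower in Pim1-/- BMDMs, 3 of them by more than 2-fold, and 1 was higher, with a median of -0.73 (4466 lower and 3848 higher of 10581, with a median of -0.03, over all genes tested). Of all genes tested, 5.15% were lower by more than 2-fold. H2-T23, which encodes the nonclassical Qa-1 molecule, was at 758, 717 and 734 FPKM in WT and 365, 345 and 376 FPKM in Pim1-/- libraries (log2 difference -1.02 ± 0.05). H2-T22 averaged 149 FPKM in WT and 71.9 FPKM in Pim1-/- libraries (-1.04 ± 0.05), though 38.1% of its 100-base windows occur in other transcripts, H2-T10 among them. H2-Q4 stood at 60.0% of WT (-0.73 ± 0.05). Fcgrt, the heavy chain of the neonatal Fc receptor, which pairs with beta-2 microglobulin but carries IgG and albumin and not peptides, had the largest difference of the list, at 10.5 against 52.3 FPKM after LPS (-2.21 ± 0.04) and 15.4 against 82.2 FPKM untreated. H2-M3, which shares the spaced promoter pair, was at 51.2 against 59.7 FPKM after LPS (-0.22 ± 0.06, adjusted p = 0.00229).

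For peptide loading and trimming, 7 of 9 listed genes were lower in Pim1-/- BMDMs after LPS and 1 was higher, with a median of -0.47. Of all genes tested, 42.2% were lower after LPS. The list includes general chaperones and peptidases that serve other proteins too. Erap1, named after its values were seen, was the higher gene. Its log2 difference was 0.51 ± 0.06 after LPS (143.6% of WT) and 0.57 ± 0.06 without treatment (152.9% of WT). Every Pim1-/- library was above every WT library in both states. Calr, the chaperone calreticulin of the loading complex, was at 382, 401 and 392 FPKM in WT and 233, 231 and 260 FPKM in Pim1-/- libraries (-0.70 ± 0.05). Hspa5, the endoplasmic reticulum chaperone BiP, averaged 1166 FPKM in WT and 639 FPKM in Pim1-/- libraries (-0.87 ± 0.05), and Npepps, a cytosolic aminopeptidase, 50.3 and 26.3 FPKM (-0.91 ± 0.05).

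Proteasome activators and assembly factors were mixed. Among the 8, 4 were lower after LPS and 2 were higher, with a median of -0.28. Over all genes tested, 4466 of 10581 were lower and 3848 were higher. Psme1 and Psme2, which encode the alpha and beta chains of the interferon-inducible PA28 activator, were among the lower genes, at 339 against 542 FPKM (-0.68 ± 0.04) and 961 against 1343 FPKM (-0.48 ± 0.04). The higher genes were Psmg1 and Psmg2, which encode the chaperone pair that assembles the ring of alpha subunits in every proteasome, at 9.99 against 5.01 FPKM (0.87 ± 0.09) and 15.9 against 7.99 FPKM (0.92 ± 0.10). Psme1 and Psme2 thus went in the direction of the immunoproteasome subunits, and Psmg1 and Psmg2 in that of Psmb5, Psmb6 and Psmb7. The other lower genes, named after their values were seen, were Psme3 (-0.61 ± 0.05) and Psme4 (-0.51 ± 0.05). Their differences were as large as that of Psme2. Pomp (-0.05) and Psmg3 (-0.07) did not pass.

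Of 22 genes for regulators of class I transcription, 16 were lower in Pim1-/- BMDMs after LPS, 4 of them by more than 2-fold, and 3 were higher, with a median of -0.36. Of all genes tested, 42.2% were lower, and 5.15% were lower by more than 2-fold. Irf8, a transcription factor of the myeloid lineage, was at 231, 219 and 227 FPKM in WT and 57.4, 55.6 and 62.3 FPKM in Pim1-/- libraries (-1.93 ± 0.05). Ifnar1, a chain of the receptor for type I interferon, averaged 48.0 FPKM in WT and 19.5 FPKM in Pim1-/- libraries (-1.26 ± 0.05). Irf7, an interferon-induced factor that drives more interferon genes, was at 818 against 396 FPKM (-1.05 ± 0.08), and Irf1, which binds class I promoters directly, at 872 against 676 FPKM (-0.37 ± 0.04). Without treatment 17 of the 22 were lower and 1 was higher, with a median of -0.53, where 42.8% of all genes tested were lower. Irf7 was then at 8.83 against 2.02 FPKM (-1.71) and Irf1 at 33.9 against 13.4 FPKM (-1.28). The LPS response was smaller in Pim1-/- BMDMs for 7 of the 22 and larger for 9 (34.7% and 31.3% of all genes tested). Irf7 (0.67) and Irf1 (0.91) had a larger response, and Irf8 (-0.69) and Ifnar1 (-0.88) a smaller one. The 3 genes that were higher after LPS include Ifnb1, named after its values were seen, which encodes interferon-beta. It was listed at 0 in all untreated libraries, and after LPS at 9.52, 7.80 and 8.17 FPKM in WT and 15.1, 16.95 and 14.5 FPKM in Pim1-/- libraries (0.80 ± 0.07).

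**Figure D5:**
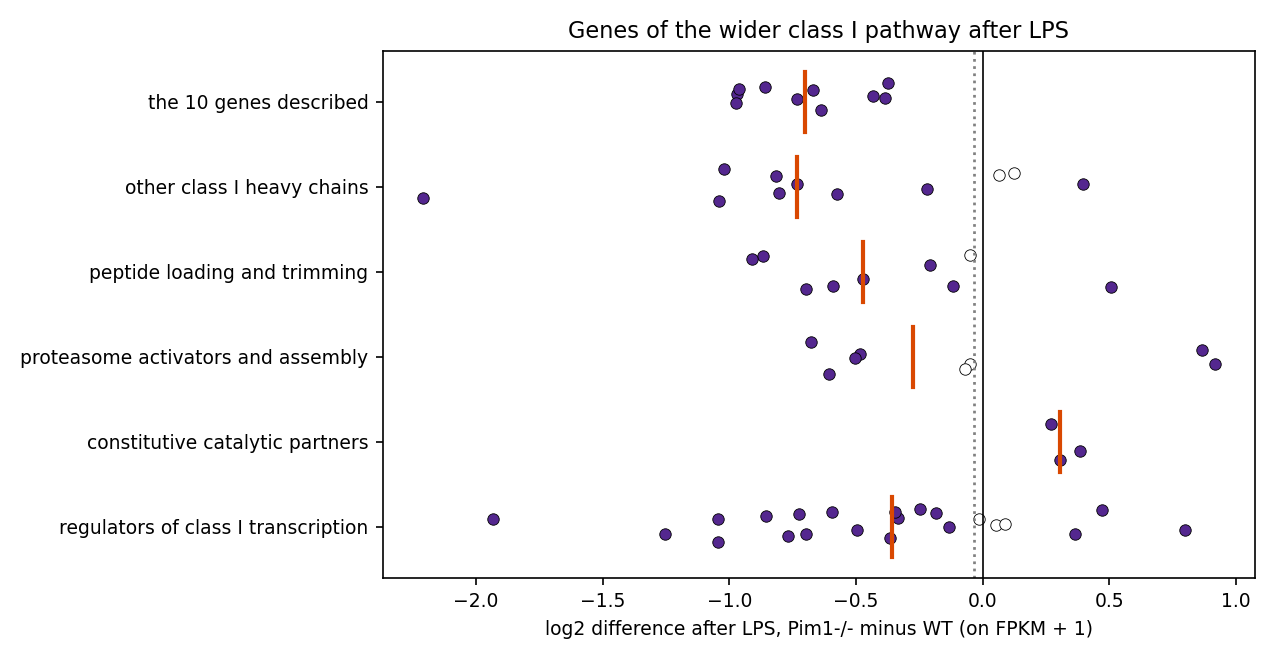
Log2 difference after LPS (Pim1-/- minus WT, on FPKM + 1; horizontal axis) of each tested gene of the 10 described and of 5 lists of the wider pathway, filled where the gene passed the test and open where it did not, with an orange bar at each list's median and a dotted line at the median of all genes. The medians run from -0.73 for other heavy chains and -0.70 for the 10 genes to 0.30 for the constitutive subunits, which all lie to the right of 0.

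The genes outside these lists whose pattern was most like the mean of the 10 were found by the distance between their differences from untreated WT on the log2 scale, over the 3 other groups. Zc3hav1, which encodes the antiviral zinc finger protein ZAP, was nearest (distance 0.07), at group means of 19.2 and 15.3 FPKM untreated and 148 and 93.8 FPKM after LPS in WT and Pim1-/- BMDMs. Whamm (0.10), an actin nucleation factor, Sec24b (0.11), a coat protein of vesicles that leave the endoplasmic reticulum, Htra1 (0.17), a secreted protease, and Kdr (0.18), a receptor for VEGF, came next. Among the 10 themselves Tap2 lay closest to the mean (0.32) and H2-D1 farthest from it (2.69).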

How the data were processed

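The 12 deposited files hold 1 value per gene and library with no unit in the header. They were read as FPKM because the authors used Cuffdiff 2.2.1 on reads aligned with TopHat2 2.0.13 (bcl2fastq 2.20.0.422 and cutadapt 1.18 came before, per the submitters' processing notes), and because the sums differ between libraries. The notes name build mm10, the methods name rat rn5, and the gene names are mouse. Annotation: not given in the sources used here, nor is the library normalization.

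A minimum of 1 FPKM in 3 or more libraries was required of a gene, and log2(FPKM + 1) was then fitted with limma 3.58.1 (R 4.3.3), using a mean-variance trend, 4 group means and all 12 libraries. A gene rose, fell, was higher or was lower where p was under 0.05 and the FDR (Benjamini-Hochberg) under 0.1 over the 10581 genes. The study's 2-fold threshold is counted apart. Adjusted p-values and intervals (95%) come from this fit. It was also run on simulated libraries with independent noise and 3-fold changes. The genotype differences of the 10 genes were smaller and same-numbered libraries deviated together, so that run does not measure how the fit performs on them. Within-library ratios of a subunit pair were compared by exact permutation tests. Ratios between the 10 genes are descriptions with no test, computed after the values were seen.

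The members and lists were chosen with earlier results of these data known. Named by rule from each list were the 2 genes with the largest mean and the 2 with the largest difference after LPS, and 5 genes were named for likeness of pattern. Psmb5, Psmb6 and Psmb7 were also named by rule. Other list genes were named after their values were seen. An approximate depth per library was the scale at which most low values were whole numbers of fragments within 0.05. At these scales 62.85% of them were. The share by chance is 10% at a fixed scale but higher at a scale chosen in this way, so it is no direct comparison. The fewest fragments behind any value of the 10 genes were then about 560, for Nlrc5, taking the length of its longest transcript.

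Same-numbered libraries deviated together from their group means (genes of at least 10 FPKM in every library, 3646 genes) for the untreated genotypes (r = 0.326, 0.37 and 0.456) and for LPS in Pim1-/- BMDMs (0.426, 0.541 and 0.683), but not in every pair after LPS or for LPS in WT. This pairing comes from the values, since the labels do not say what a number marks. The alternatives were another pseudocount (0.1), no filter or 5 FPKM, median-ratio, quantile and TPM scaling, the replicate block, no trend, only the groups compared, each library left out, and FDR under 0.05 with no fold threshold. The 3 scalings were also tried on the list genes named by rule, after the data were seen.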

Additional observations from a re-analysis of the deposited data

Results flagged for a closer look

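Of the 10 genes, 8 had an LPS response that differed between genotypes in the limma test of the difference itself. Such differences were common: over all genes tested, 34.7% had a smaller response in Pim1-/- BMDMs and 31.3% a larger one. On the log2 scale, the response in Pim1-/- minus that in WT BMDMs was -0.74 for Psmb8, -0.71 for Tap1, -0.71 for Nlrc5, -0.49 for Tap2, -0.42 for Psmb9, -0.32 for B2m and -0.19 for H2-K1, and 0.21 for Tapbp. The size of the Nlrc5 value is overstated by the log2(FPKM + 1) scale, because its untreated level is low. Tapbp was the gene with the lowest untreated level relative to WT, at 47.3%, and its larger response left it at 55.2% of WT after LPS. B2m, Psmb8 and Psmb9, whose untreated levels overlapped between genotypes, were at 77.3%, 62.7% and 74.1% of WT after LPS.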

How the results depend on the processing

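Over the alternatives, 775 of 800 member values kept their direction and side of the threshold, 8 changed sign, 8 newly passed and 9 no longer passed. The filters, the replicate block, no trend and only the groups compared leave a log2 difference as it is, so they could move only its side of the threshold. The 84 recomputed subunit ratios kept their direction. With a library left out this was fixed in advance, since no groups overlapped, and only the added pseudocount could have changed it. No member value that had passed changed sign. Without treatment, B2m was 0.0053 on the TPM scale, and Psmb9 was 0.0022 under median-ratio scaling, 0.0471 under quantile normalization, 0.0475 on the TPM scale and -0.0702 to 0.0531 over the libraries left out. For the difference in LPS response, H2-D1 was 0.1344 under quantile normalization and 0.0745 on the TPM scale. B2m without treatment passed under quantile normalization (-0.11), and Psmb8 on the TPM scale (0.13) and without replicate 2 of untreated Pim1-/- BMDMs (0.11). The number of the 10 lower by more than 2-fold after LPS was 0 to 3 over the libraries left out. With FDR under 0.05 and no fold threshold it was 10 after LPS and 7 without treatment, and the difference in response was lower for 7 and higher for 1, against 0 and 0 past 2-fold. Shares of all genes tested were not counted at this FDR. At FDR under 0.1, 42.2% were lower after LPS and 42.8% without treatment. The response was then smaller for 34.7% and larger for 31.3%. With the replicate block, Psmb10 passed for the difference in response (0.15, adjusted p = 0.0302), and no other call of the 10 changed. Of the values of list genes named by rule, 106 of 108 kept their call under other scalings. Psme2 without treatment newly passed under quantile normalization (0.08) and on the TPM scale (0.13). Counting error was estimated at up to 4.22% of a value (Nlrc5), and the SD between libraries of a group reached 9.24% of the mean among the 10.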
